A study of Bos taurus with 17 samples.

Results

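XDH, PLPP3, SAT1 and OTULINL are 4 of the 12894 bovine genes in the deposited expression table, and each has 1 row there. They were picked for large rises over day 0 on plastic that are seen at day 3 or day 21, with no stated threshold, so their levels against day 0 are given as a description without a test. The cells were mesenchymal stem cells of bovine umbilical cord, and MARS-seq, an RNA-seq protocol that reads transcripts near their 3′ ends, gave the expression values. The study addressed cellulose scaffolds for cultivated meat, and 15 libraries in 5 groups were used here. Day 0 on plastic (3 libraries) was taken the day after seeding, with no treatment. Day 3 (3 libraries) and day 21 on plastic (2 libraries) followed in myogenic differentiation medium with low serum, insulin-transferrin-selenium, albumin, dexamethasone, ascorbic acid 2-phosphate, vascular endothelial growth factor, an insulin-like and a fibroblast-like growth factor. At day 21 the smart scaffold (3 libraries) carried the growth factors on the scaffold and had none of them in the medium, and the media scaffold (4 libraries) was kept in the same medium as the plastic cultures. Cells on scaffold at day 0 were not analysed here, so time on a scaffold has no baseline of its own. The labels do not say from how many animals the cultures came, so p-values measure the spread between these libraries.

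The 4 genes belong to different pathways. XDH is xanthine dehydrogenase, a molybdenum enzyme that oxidises hypoxanthine to xanthine and xanthine to uric acid at the end of purine breakdown, and it is also a coat protein of the milk fat globule in cows. PLPP3 is a membrane phosphatase that removes phosphate from lysophosphatidic acid (LPA) and sphingosine 1-phosphate (S1P) outside the cell and so ends signalling by these lipids. SAT1 acetylates spermidine and spermine, the rate-limiting step of polyamine breakdown. OTULINL is a relative of OTULIN, the deubiquitinase that cleaves linear ubiquitin chains, and in human it lacks that catalytic activity and sits at the endoplasmic reticulum.

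Recovered reads per library ran from 2197356 to 15483745, and the lowest depth was that of replicate 2 on plastic at day 21. All 7 mesenchymal stromal markers on the list used had values in every group, and their summed level was 24786 to 27250 normalized reads on the smart scaffold, 27079 to 29671 on the media scaffold, 31981 to 39950 on plastic at day 21, 11077 to 18976 at day 3 and 12387 to 12669 at day 0. THY1 and ITGB1 made up most of these sums. THY1 averaged 18122 on plastic at day 21 and 401 at day 0, ENG 3407 and 663, ITGB1 13760 and 9686, and PDGFRB 131 and 47.6. Lower on plastic at day 21 were CD44 with 335 and 1429, NT5E with 188 and 298, and ALCAM with 21.7 and 48.3. Of 9 endothelial markers 3 had a row (VWF, TEK and ERG), and these summed to 134 to 155 on the smart scaffold, 108 to 118 on the media scaffold and 66.2 to 99.7 on plastic at day 21, against 27.7 to 28.4 at day 0. Of 10 blood and immune markers 6 had a row, summing to 25.3 to 34.7 on the smart scaffold, 27.1 to 37.8 on the media scaffold, 142 to 192 on plastic at day 21, 33.9 to 88.2 at day 3 and 33.6 to 35.2 at day 0. CD34 was at 0 reads at day 0. The 2 of 8 epithelial markers with a row, CDH1 and KRT19, summed to at most 6.93 in any library. The part of these marker levels in the results below was not tested, and in bulk samples fewer cells of a type and less RNA per cell cannot be told apart.

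XDH stood at 56.3, 61.3 and 65.9 normalized reads in the libraries of day 0 and at 924, 837 and 968 at day 3. At day 21 it stood at 1433, 1643 and 1526 on the smart scaffold and at 1854, 1811, 1732 and 1642 on the media scaffold, while the 2 plastic libraries held 4815 and 3691. The lowest library of day 3 was above all of day 0, and both plastic libraries of day 21 were above every other library. The mean of day 3 was 14.9 times that of day 0, and the mean of day 21 on plastic 69.5 times. The ranges of the 2 scaffold groups overlapped.

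PLPP3 stood at 55.6, 45.3 and 56.1 normalized reads at day 0 and at 538, 452 and 591 at day 3. It stood at 3085, 2829 and 3329 on the smart scaffold, at 4814, 5460, 5355 and 5022 on the media scaffold and at 6800 and 7171 on plastic at day 21. No ranges overlapped, and by mean the 5 groups ran day 0, day 3, smart scaffold, media scaffold and plastic at day 21. Of all genes, 44.3% did not overlap between day 0 and day 3, 20.4% between the scaffolds and 71.2% between media scaffold and plastic. The share for day 3 against the scaffolds was not computed. Nothing is read from this order, since the plastic levels entered the choice of genes. The mean of day 3 was 10.1 times that of day 0, and the mean of day 21 on plastic 134 times.

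SAT1 stood at 301, 320 and 261 normalized reads at day 0 and at 3586, 3054 and 2921 at day 3. It stood at 1832, 1730 and 1793 on the smart scaffold, at 2229, 2375, 2332 and 2379 on the media scaffold and at 3235 and 2577 on plastic at day 21. SAT1 was the 1 gene of the 4 that was not higher at day 21 than at day 3: the ranges of day 21 on plastic and day 3 overlapped, and all scaffold libraries were below those of day 3. The mean of day 3 was 10.8 times that of day 0, and the mean of day 21 on plastic 9.88 times.

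OTULINL stood at 19.7, 22.4 and 22.1 normalized reads at day 0 and at 78.1, 59.4 and 60.7 at day 3. It stood at 1364, 1458 and 1603 on the smart scaffold, at 1474, 1516, 1516 and 1397 on the media scaffold and at 900 and 821 on plastic at day 21. It was the 1 gene of the 4 with all scaffold libraries above both plastic libraries of day 21. Its day 0 values rest on 28 to 56 reads per library, and the mean of day 3 was 3.09 times that of day 0, against 40.2 times for day 21 on plastic.

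**Figure D1:**
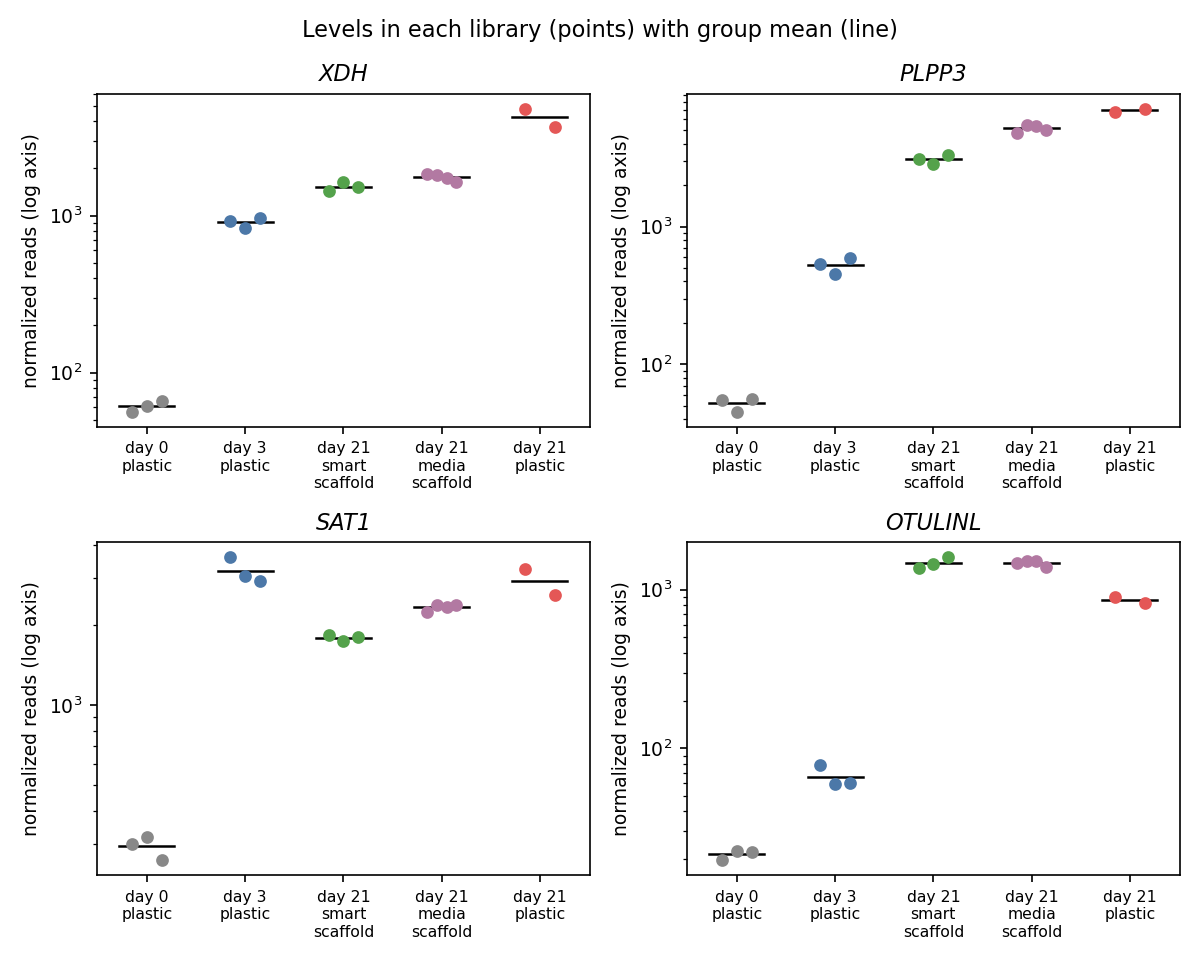
Normalized reads (log axis) of XDH, PLPP3, SAT1 and OTULINL in each of the 15 libraries, by group, with a point per library and a line at the group mean. XDH, PLPP3 and SAT1 at day 3 already lie far above day 0, whereas OTULINL reaches 59.4 to 78.1 at day 3 and 821 to 1603 at day 21.

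The 4 genes differed in when the gain over day 0 was seen. On the log2(normalized reads + 1) scale, the difference of day 3 from day 0 was 3.87 ± 0.16 for XDH, 3.31 ± 0.26 for PLPP3, 3.43 ± 0.22 for SAT1 and 1.57 ± 0.24 for OTULINL (± SD of the difference, n = 3 and 3). As a share of the log2 difference of day 21 on plastic from day 0, the difference at day 3 came to 104% for SAT1, 63.6% for XDH, 46.9% for PLPP3 and 29.9% for OTULINL. Among the 10960 genes tested, XDH had the rank 16 from the highest difference at day 3, SAT1 30, PLPP3 34 and OTULINL 320. At day 21 on plastic the ranks were 30 for PLPP3, 65 for XDH, 107 for OTULINL and 350 for SAT1. At day 3 6.27% of genes were called higher than at day 0, and on plastic at day 21 21.2% were. Lower were 3.73% at day 3 and 24.1% on plastic at day 21. Calls were made with limma, where the Benjamini-Hochberg adjusted p had to lie under 0.05 and the fold change had to reach 1 on the log2 scale in either direction. The words "rose" and "fell" are used for called genes. The libraries of all 4 genes did not overlap with day 0 at either time, which held for 44.3% of all genes at day 3 and 79.7% on plastic at day 21, and nothing is read from this since the genes were picked on these levels. The gains against day 0 at day 3 and day 21 share the day 0 libraries, and time in culture and differentiation medium changed together.

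**Figure D2:**
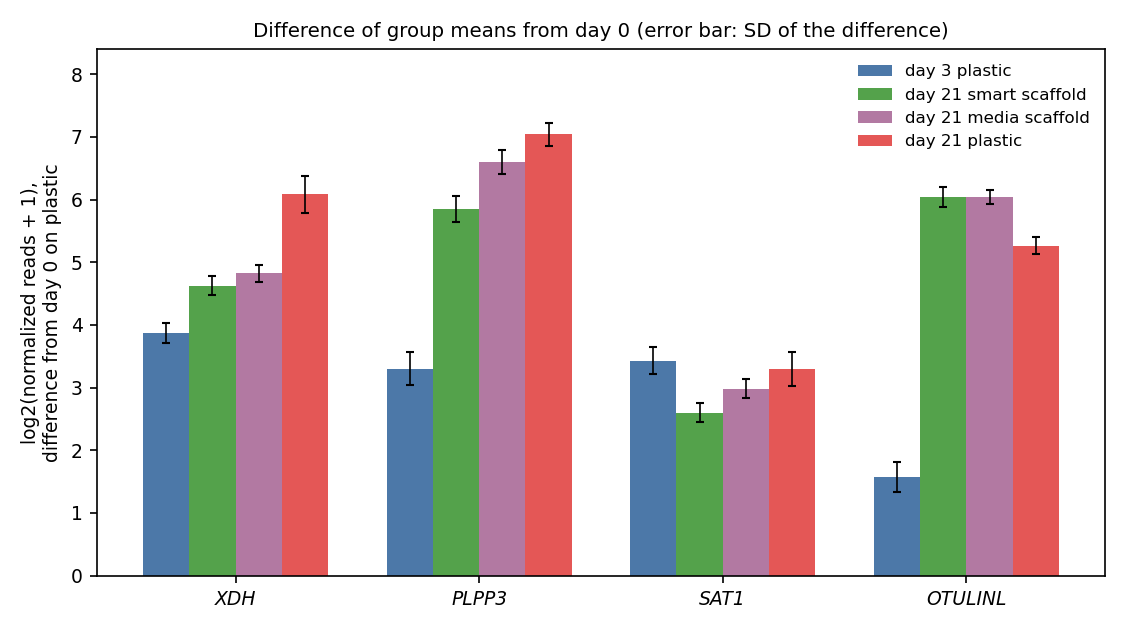
Difference of the group mean from day 0 on plastic, in log2(normalized reads + 1), for 4 genes at day 3 and in the 3 groups of day 21, with error bars for the SD of the difference. SAT1 is as high at day 3 (3.43) as on plastic at day 21 (3.30), while OTULINL has the lowest difference at day 3 (1.57) and 6.04 on both scaffolds.

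Scaffold and plastic cultures of day 21 were then compared, a contrast the choice of genes did not name, although the plastic libraries of day 21 had entered that choice. Choosing genes for high levels on plastic favours lower values on the scaffolds, and the p-values against plastic make no allowance for it. Against plastic, XDH fell on both scaffolds, PLPP3 fell on the smart scaffold, and OTULINL and SAT1 stayed below the fold threshold with opposite signs. On the media scaffold 1 of the 4 genes was called, against 35.4% of all genes (20.8% higher and 14.6% lower), and on the smart scaffold 2 of 4, against 37.5% (21.4% higher and 16.0% lower). The libraries did not overlap for any of the 4 genes in either comparison, which also held for 71.2% and 73.1% of all genes. Both comparisons share the 2 plastic libraries.

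XDH averaged 1534 ± 105 normalized reads on the smart scaffold (SD, n = 3), 1760 ± 93.5 on the media scaffold (n = 4) and 4253 ± 795 on plastic (n = 2). Its log2 fold change over plastic was −1.46 on the smart scaffold (SE 0.12, limma adjusted p = 2.29e-08) and −1.26 on the media scaffold (SE 0.11, adjusted p = 6.95e-08). Between the scaffolds XDH differed by −0.20, with an interval of −0.41 to 0.02 (adjusted p = 0.445).

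PLPP3 averaged 3081 ± 250 normalized reads on the smart scaffold, 5163 ± 298 on the media scaffold and 6986 ± 263 on plastic. It fell 2.27-fold on the smart scaffold against plastic (log2 fold change −1.18, SE 0.13, adjusted p = 3.65e-07). On the media scaffold the log2 fold change over plastic was −0.44 (SE 0.12, adjusted p = 0.0039), below the fold threshold. Between the scaffolds PLPP3 was 1.68-fold lower on the smart one, with no overlap of libraries and a log2 fold change of −0.75 (interval −0.97 to −0.53, adjusted p = 0.000704), again below the fold threshold.

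SAT1 averaged 1785 ± 51.6 normalized reads on the smart scaffold, 2329 ± 69.8 on the media scaffold and 2906 ± 465 on plastic. The log2 fold change over plastic was −0.69 on the smart scaffold (SE 0.12, adjusted p = 7.15e-05) and −0.31 on the media scaffold (SE 0.11, adjusted p = 0.0229), both below the fold threshold. The media scaffold value rests on replicate 1 of plastic: without it the log2 fold change was −0.15 (adjusted p = 0.332), within a range of adjusted p from 0.00545 to 0.332 over the alternatives. Between the scaffolds SAT1 differed by −0.38 (interval −0.59 to −0.17, adjusted p = 0.0522).

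OTULINL averaged 1475 ± 121 normalized reads on the smart scaffold, 1476 ± 56.3 on the media scaffold and 861 ± 55.5 on plastic. It was 1.71-fold its plastic level on the smart scaffold (log2 fold change 0.78, SE 0.13, adjusted p = 5.69e-05) and 1.72-fold on the media scaffold (0.78, SE 0.12, adjusted p = 3.25e-05), short of the fold threshold. The scaffolds differed by 0.00 with an interval of −0.23 to 0.23.

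Between smart and media scaffold, where the growth factors sat on the scaffold or in the medium, 0 of the 4 genes were called by limma, and likewise 0 by edgeR and 0 by DESeq2, with 2 at an unadjusted p under 0.05 (PLPP3 and SAT1, both lower). Of all genes 0.903% were called (0.0730% higher and 0.830% lower). Libraries did not overlap for PLPP3 and SAT1, against 20.4% of all genes.

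**Figure D3:**
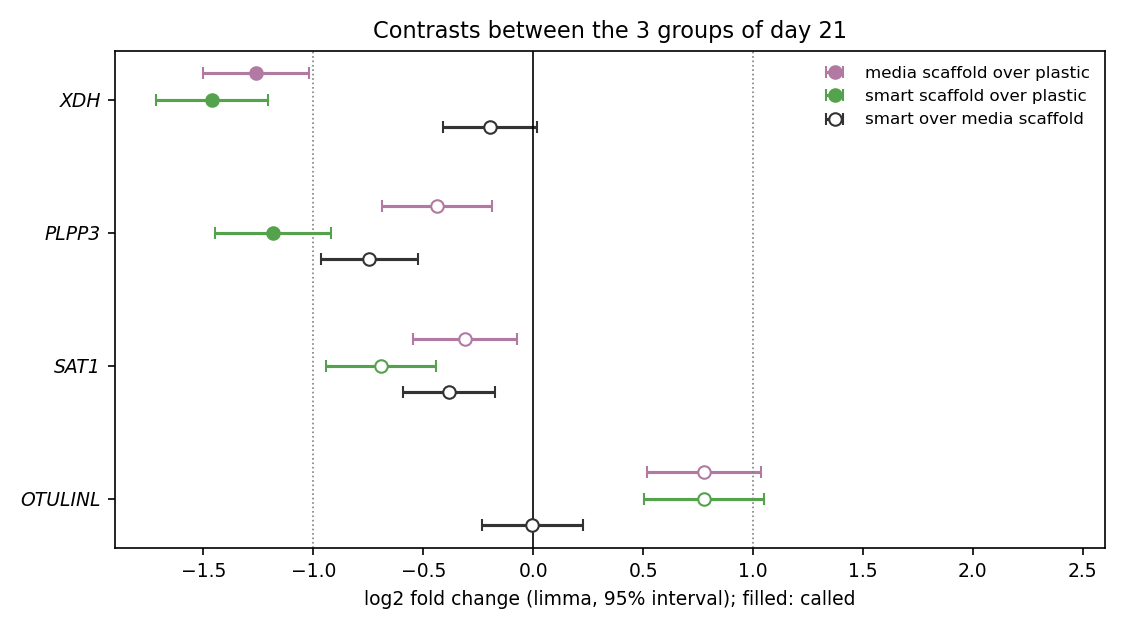
Log2 fold changes of the 4 genes between the 3 groups of day 21 with 95% intervals from limma. Filled points are called, dotted lines mark the fold threshold of 1. XDH on both scaffolds (−1.26 and −1.46) and PLPP3 on the smart scaffold (−1.18) lie beyond it, and OTULINL is at 0.78 on both.

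The genes most like each of the 4 over the 15 libraries, by Pearson correlation of log2(normalized reads + 1), fell into different sets. The libraries form groups, so these values largely describe group means. XDH was most like MEDAG, a gene linked to adipogenesis (r = 0.989), PGPEP1 and NUMBL (both 0.988), the major vault protein MVP (0.982) and IFFO1 (0.982). MVP averaged 266 normalized reads at day 0, 895 at day 3, 1288 on the smart scaffold, 1472 on the media scaffold and 2468 on plastic at day 21, the same order of groups as XDH. PLPP3 was most like TMEM37 (0.994), sorbitol dehydrogenase SORD (0.992), the Notch receptor NOTCH3 (0.992), the focal adhesion protein tensin TNS1 (0.991) and sarcosine dehydrogenase SARDH (0.989). NOTCH3 averaged 87.7, 345, 1374, 1750 and 1902 normalized reads over the groups in that same order. SAT1 was most like the survival gene BCL2L1 (0.976), CCBE1 (0.963), the sterol reductase TM7SF2 (0.963), the clock gene PER1 (0.959) and TNFSF13 (0.955). BCL2L1 averaged 270 at day 0 and 1062 at day 3, and 933, 892 and 1222 on the smart scaffold, the media scaffold and plastic at day 21. OTULINL was most like the receptor ligand GAS6 and the lysosomal protease cathepsin B, CTSB (both 0.995), P3H4 (0.994), NPDC1 (0.994) and the vitamin K reductase VKORC1 (0.994). GAS6 averaged 69.1 at day 0, 147 at day 3, 2441 on the smart scaffold, 2623 on the media scaffold and 1142 on plastic at day 21. Among the 4 genes themselves, r ran from 0.618 (SAT1 and OTULINL) to 0.956 (XDH and PLPP3).

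The pathways around each gene were then read from 4 lists that leave out the 4 genes themselves. For XDH, 28 of 30 listed genes of purine metabolism and the molybdenum cofactor with a row were tested. At day 3, 2 rose and 1 fell, near the 10.0% of all genes called (6.27% higher and 3.73% lower). The 2 that rose are the other molybdenum enzymes on the list, and a link to XDH was not tested. AOX1, aldehyde oxidase, the closest relative of XDH, averaged 50.2 ± 13.2 normalized reads at day 3 and 4.06 ± 0.83 at day 0 (n = 3 and 3; log2 fold change 3.32, SE 0.20, limma adjusted p = 1.5e-09). SUOX, sulfite oxidase, averaged 354 ± 85.9 at day 3 and 104 ± 6.26 at day 0 (log2 fold change 1.73, adjusted p = 1.72e-06). ADA, adenosine deaminase, fell (log2 fold change −1.91), and a second gene fell without replicate 3 of day 3.

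By day 21 on plastic, 7 of the 28 rose and 10 fell against day 0, with a median log2 fold change of −0.63 against −0.06 over all genes, of which 45.2% were called. With every library rescaled to an equal total, 5 rose and 12 fell, and the all-gene median shifted by −0.26. AOX1 held 1315 and 1031 normalized reads on plastic at day 21, against 4.22, 4.80 and 3.16 at day 0. MOCOS, the sulfurase that activates XDH and AOX1, rose on few reads (15 on plastic at day 21 and 6 at day 0, log2 fold change 3.03). HPRT1, which salvages hypoxanthine and guanine, fell (−2.94), and ADSSL1, a synthase of adenine nucleotides, rose (2.81). Outside the naming rule and chosen after their values were seen, PNP, which yields hypoxanthine and guanine, rose (log2 fold change 1.38), and the enzymes of purine synthesis PPAT (−2.21) and PAICS (−2.80) fell.

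On the scaffolds AOX1 stood at 62.7, 50.3 and 51.7 normalized reads on the smart scaffold and at 215, 238, 237 and 182 on the media scaffold, all below plastic. It fell against plastic on the smart scaffold (log2 fold change −4.39) and on the media scaffold (−2.42). Between the scaffolds, where 0.903% of all genes were called, AOX1 was the 1 listed gene called (−1.97, SE 0.19, limma adjusted p = 8.53e-06). Of the 28 genes, 7 rose and 3 fell on the smart scaffold against plastic, and 8 rose and 2 fell on the media scaffold. These shares are near those of all genes, of which 37.5% and 35.4% were called. By the naming rule, the genes that rose on both were the nucleoside transporter SLC29A2 (2.85 on the smart and 2.66 on the media scaffold), GMPS, which makes GMP (2.62 and 2.57), and the urate and drug exporter ABCG2 (2.29 and 2.32).

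For PLPP3, 14 of 17 listed genes of LPA and S1P metabolism and their receptors with a row were tested. At day 3, 1 rose, where 10.0% of all genes were called. This was ENPP2, which makes extracellular LPA, at 8.65 ± 3.40 against 3.66 ± 0.52 normalized reads and a log2 fold change of 1.00. It was not called in 7 of 15 alternatives, among them those without replicates 2 or 3 of day 0 (0.93 and 0.99) or replicate 3 of day 3 (0.73), and 1 other gene fell without replicate 1 of day 3. On plastic at day 21, 8 rose and 1 fell against day 0, with a median log2 fold change of 1.19 against −0.06 over all genes, of which 21.2% were called higher and 24.1% lower. Rescaling to the same total gave 6 and 1. The S1P receptor S1PR3 averaged 225 ± 2.11 against 22.7 ± 4.53 normalized reads (log2 fold change 3.27, adjusted p = 1.43e-10). PLPP1, a phosphatase of the same family as PLPP3, averaged 684 ± 307 against 135 ± 5.14 (2.25). The LPA receptor LPAR1 held 16 reads against 3, a ratio of 30.6 (95% counting interval 8.76 to 164). Replicate 1 of plastic held 15 of the 16 reads and replicate 1 of day 0 all 3, and the log2 fold change ran from 1.56 to 4.74 over the alternatives. SGPP1, an S1P phosphatase inside the cell, fell (−2.55), on 8 and 4 reads in the plastic libraries of day 21.

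Against plastic at day 21, 1 of the 14 rose and 2 fell on the smart scaffold, and 2 rose and 2 fell on the media scaffold, shares below the 37.5% and 35.4% of all genes called. Without replicate 1 of plastic, 5 rose and 2 fell on the media scaffold, a share no longer below that of all genes. Without replicate 2 of plastic, 1 rose and 1 fell on each scaffold. After quantile normalization, which gives all libraries the same distribution of values, 1 rose and 4 fell on the smart scaffold, near the share of all genes. By edgeR and by DESeq2, 1 was called higher and 3 lower there. SGPP1 rose on both (2.85 on the smart and 2.75 on the media scaffold), against the same 8 and 4 reads on plastic. The LPA receptor LPAR2 fell on both (−3.38 and −2.85), on 1 to 7 reads per scaffold library. The S1P receptor S1PR2 fell (−1.08 and −1.12), a call that ended without replicate 2 of plastic (−0.94 and −0.97). PLPP1 rose on the media scaffold (1.08), which was 0.61 without replicate 2 of plastic. Between the scaffolds 0 of the 14 were called by limma, edgeR or DESeq2, where limma called 0.903% of all genes. At an unadjusted p under 0.05, 2 were higher and 2 lower.

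For SAT1, 17 of 19 listed genes of polyamine metabolism with a row were tested. At day 3, when the mean of SAT1 was highest, 0 rose by limma and 2 fell, where 10.0% of all genes were called. At an unadjusted p under 0.05, 4 were higher and 6 lower. edgeR and DESeq2 each called 1 higher, as did limma without replicate 1 of day 0 or replicate 3 of day 3. The 2 that fell were SLC3A2, a subunit of amino acid transporters (397 ± 24.2 against 1155 ± 28.7 normalized reads, log2 fold change −1.54, adjusted p = 2.45e-09), and AMD1, which makes the aminopropyl donor for spermidine and spermine (−1.20). ODC1, the first enzyme of polyamine synthesis, stood at 1835 ± 230 and 2770 ± 66.7, below the fold threshold (−0.60).

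By day 21 on plastic 6 of the 17 fell and 2 rose, a share near the 45.2% of all genes called. After rescaling to the same total 8 fell and 1 rose, and without replicate 2 of plastic 7 fell and 1 rose. ODC1 averaged 730 ± 245 normalized reads on plastic at day 21 against 2770 ± 66.7 at day 0 (log2 fold change −1.96, adjusted p = 5.13e-09). AMD1 (−3.01) and AZIN1, which protects ODC1 from its inhibitor (−2.83), also fell. PAOX, the oxidase that acts on acetylated polyamines made by SAT1, rose to 637 ± 50.03 against 170 ± 10.1 normalized reads (log2 fold change 1.90, adjusted p = 1.07e-08). Named after their values were seen, the spermidine and spermine synthases SRM (−1.70) and SMS (−1.56) also fell.

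On the smart scaffold 5 of the 17 rose against plastic and 2 fell, and on the media scaffold 3 rose and 2 fell, near the 37.5% and 35.4% of all genes called. PAOX fell on both (−1.64 on the smart and −1.47 on the media scaffold), and so did the polyamine transporter ATP13A3 (−2.18 and −2.52). AZIN1 rose on both (2.84 and 2.62). AMD1 rose on the smart scaffold (1.81) and SMS on the media scaffold (1.60). Between the scaffolds 0 of the 17 were called by limma, edgeR or DESeq2, where limma called 0.903% of all genes. At an unadjusted p under 0.05, 4 were higher.

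For OTULINL, all 18 listed genes of linear ubiquitin chains and OTU deubiquitinases with a row were tested. At day 3, when 10.0% of all genes were called, 0 rose by limma, edgeR or DESeq2, with 4 higher at an unadjusted p under 0.05, and 1 fell, TNFAIP3, a brake on NF-κB signalling (−1.39). On plastic at day 21, 2 rose and 1 fell: TNIP1, which binds TNFAIP3 (1.70), OTUD5 (1.55) and, lower, OTUB2 (−1.49), where 45.2% of all genes were called. The lower count was 3 after rescaling to the same total or without replicate 2 of plastic and 2 without replicate 1 or 3 of day 0, and the higher count was 4 without replicate 1 of plastic. OTULIN itself averaged 233 ± 22.0 normalized reads at day 0 and 270 ± 60.2 at day 3. At day 21 it averaged 201 ± 9.43 on the smart scaffold, 164 ± 7.91 on the media scaffold and 244 ± 13.9 on plastic. It was called in none of the 5 comparisons. Its log2 fold change over plastic was −0.57 on the media scaffold (limma adjusted p = 0.00239), below the fold threshold, and −0.28 on the smart scaffold (adjusted p = 0.12). On the smart scaffold 1 of the 18 rose and 2 fell against plastic, and on the media scaffold 1 rose and 3 fell, where 37.5% and 35.4% of all genes were called. On the media scaffold edgeR and DESeq2 each called 1 lower. OTUD6B (−1.25) was not called there in 10 of 15 alternatives and ZRANB1 (−1.01) in 8 of 16, while OTUD7B was called lower in 15 of 15 (−1.84 to −1.27). The 2 that fell on the smart scaffold were OTUD6B, called in 12 of 14 alternatives, and ZRANB1, called in 9 of 15. By edgeR, after rescaling to the same total or without replicate 3 of the smart scaffold, 1 fell there. Without replicate 2 of plastic, 2 rose and 0 fell on the smart scaffold, and 2 rose and 1 fell on the media scaffold. CYLD, a deubiquitinase of linear ubiquitin chains, rose on both (1.62 on the smart and 1.27 on the media scaffold). Between the scaffolds 0 of the 18 were called by limma, edgeR or DESeq2, where limma called 0.903% of all genes. At an unadjusted p under 0.05, 2 were higher.

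**Figure D4:**
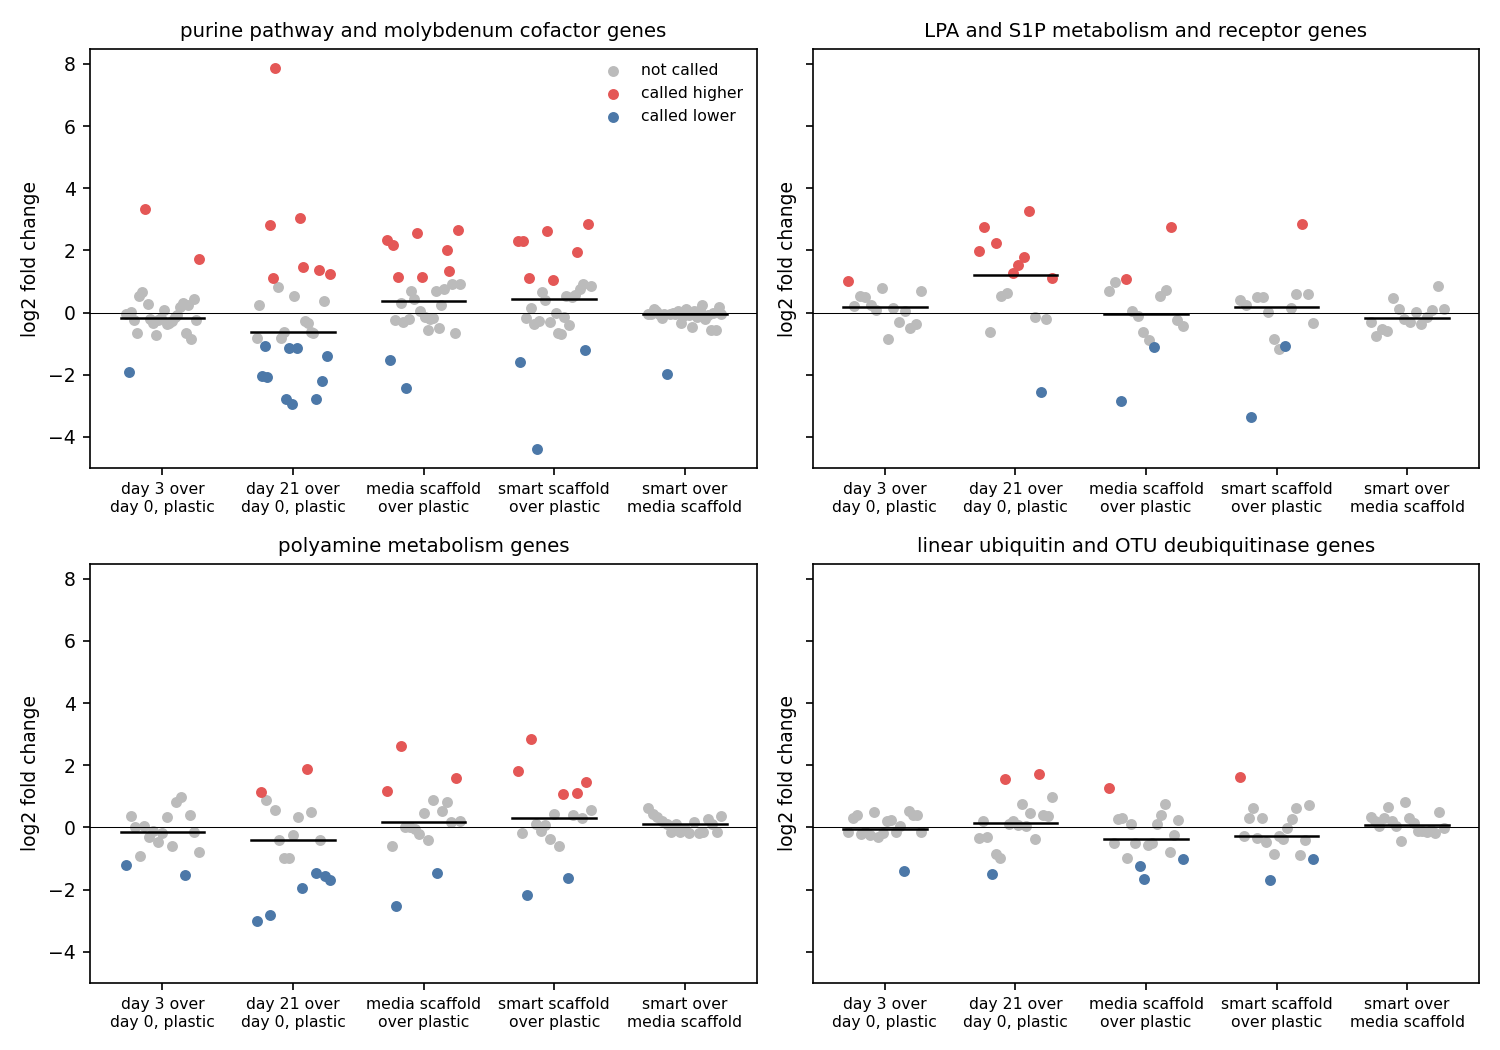
Log2 fold changes of the tested genes of 4 pathway lists in 5 comparisons, with a point per gene, colour for the call and a line at the list median. AOX1 is the highest point at day 3 (3.32) and at day 21 on plastic (7.86) in the purine panel, and the LPA and S1P panel has a median of 1.19 on plastic at day 21.

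The genes next to the 4 on the chromosome were also read. The protein-coding neighbours on either side were taken from the order of genes in the RefSeq table of assembly ARS-UCD2.0, chosen by position after the values of the 4 genes were known, and 6 of the 8 had a row and were tested. At day 3, 0 of the 6 were called by limma, where 10.0% of all genes were called. FAM136A had a limma adjusted p of 2.11e-05 below the fold threshold (−0.80). On plastic at day 21 1 rose against day 0, USP24 next to PLPP3 (log2 fold change 1.13, SE 0.42, limma adjusted p = 0.0238). There 2 fell, FAM136A next to XDH (−1.17) and APOO next to SAT1 (−2.44), while 45.2% of all genes were called. Against plastic at day 21, USP24 fell (−2.37 on the smart and −2.08 on the media scaffold), TRIO fell (−1.44 and −1.14) and APOO rose (1.31 and 1.11), where 37.5% and 35.4% of all genes were called. USP24 was low, at means of 5.66 on the smart scaffold, 7.03 on the media scaffold and 32.4 on plastic. The SEs of its changes were 0.42 on the smart and 0.40 on the media scaffold. OTULIN is the neighbour of OTULINL on one side, and TRIO, on the other, averaged 1956 normalized reads on plastic at day 21 and 1054 at day 0 (0.86, below the fold threshold). By that annotation 1 gene, a long non-coding RNA, overlaps SAT1, and 0 overlap the other three, so reads of SAT1 and that RNA cannot be told apart if strand was not used in counting.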

How the data were processed

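MARS-seq libraries of 17 bovine samples in 6 groups are described in the labels, and 15 in 5 groups were used. A further 2 value columns have names found among no titles and entered no step. The deposited table holds a normalized signal per gene, read counts that the authors divided by 1 factor per library. Per the submitters' processing notes, cutadapt, STAR, HTSeq and DESeq were used with build ARS-UCD1.2. Versions, use of strand and collapsing by molecular identifier are not given in the sources used here. Dividing by the value of 1 read (0.395 to 3.44) gave whole numbers for 100% of values (tolerance 0.1), 2197356 to 15483745 reads per library. These limit precision, and counting intervals cover counting error only. No coordinates are printed, since the reference table is of another build.

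Values were analysed as log2(value + 1), on which fold changes of low genes are understated, in limma 3.58.1 (R 4.3.3, trend and robust) in 1 fit of 15 libraries. Genes with a mean of at least 5 were tested (10960, with 1934 left out, all 4 members kept). Calls needed a two-sided Benjamini-Hochberg adjusted p under 0.05 and a log2 fold change of at least 1. Members, lists and tests were chosen with earlier results of these data known. List genes were named as the up to 4 called genes with the largest change per list and comparison, and like genes as the 5 with the highest correlation. Alternatives were 10 other settings, among them edgeR 4.0.16 and DESeq2 1.42.0 on the recovered reads, and leaving out each library. On the recovered reads edgeR called 1246 genes at day 3 and 4834 on plastic at day 21 against day 0, 3872 for smart scaffold and 3659 for media scaffold over plastic, and 107 between the scaffolds. The fit was tested on simulated counts.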

Additional observations from a re-analysis of the deposited data

Results flagged for a closer look

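OTUD5, an OTU deubiquitinase, had 1 library far from the others on the media scaffold: replicate 3 held 1155 normalized reads, against 1321, 1314 and 1334 in the other three. It was the 1 of 35 genes examined in that group with such a gap. How often chance alone gives such a gap among 35 genes was not tested, so nothing is read from it.

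AOX1 differed between the scaffolds at day 21: the log2 fold change of smart over media scaffold was −1.97 (limma, adjusted p = 8.53e-06), with 3 of 3 smart libraries below all 4 media libraries. This is the contrast already given above for AOX1, and the plastic mean does not enter it.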

How the results depend on the processing

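XDH on both scaffolds and PLPP3 on the smart scaffold stayed called lower than plastic under all alternatives run, at log2 fold changes of −1.48 to −1.39 for XDH on the smart scaffold and −1.28 to −1.17 on the media scaffold, and −1.24 to −1.13 for PLPP3. Leaving out 1 library gave −1.65 to −1.27, −1.45 to −1.07 and −1.24 to −1.12. All of these settings use plastic libraries of day 21, which had entered the choice of genes. The other member tests stayed on their side of the call, but the near-zero difference of OTULINL between the scaffolds was positive after rescaling to the same total (0.016) and by DESeq2 (0.0034), and −0.065 to 0.052 with 1 library left out. The 99 genes called between the scaffolds were 53 to 87 with 1 library left out, lowest without replicate 2 of the media scaffold, and 61, 61 and 62 without replicates 1 or 3 of the media scaffold or replicate 2 of the smart one. Against day 0 on plastic, day 21 had 2320 higher and 2636 lower genes, and 1812 and 3276 after rescaling to the same total. That scaling lowered the day 21 differences of the 4 genes from day 0 by about the shift of all genes. Replicates with the same number did not visibly deviate together (correlations of −0.0744 to 0.0313). With 2 or 3 such pairs per comparison, this check cannot exclude a pairing of libraries, and the main fit assumed none. With the replicate number as a block, the PLPP3 value on the smart scaffold was −1.24 and no member call changed, while the adjusted p of SAT1 on the media scaffold was 0.056. Plastic at day 21 rests on 2 libraries, 1 of them the shallowest.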
